A study of Ricinus communis with 6 samples.

Results

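In the castor bean internode, 172 of 18875 gene rows stood high in 1 library of each variety, D2 of the dwarf variety 071113 and L1 of the high-stalk variety Zhuansihao, and low in D1, D3, L2 and L3. The genes were chosen by their measured values: the lower of the D2 and L1 values, plus 1 FPKM, had to be at least 3 times the highest of the other 4 libraries, plus 1 FPKM. FPKM counts sequenced fragments relative to transcript length and to the size of the library, so that levels of genes of unlike length can be set side by side. Because all 6 libraries were used to choose the genes, their height in D2 and L1 is a description and carries no test.

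The libraries were made from poly(A) mRNA of the 5th internode of the main stem, taken in the field when plants had 8 to 10 leaves, and each variety has 3 libraries called biological replicates. The groups differ in variety alone as far as the labels say: 071113 is a short-stalk variety with libraries D1, D2 and D3, Zhuansihao is a high-stalk variety with libraries L1, L2 and L3, and no treatment is named for either. About 6 plants were dissected, but which of them went into which library is not given, so p-values measure the spread between libraries, which may be technical. In its own variety comparison the study left out D2 after comparing the correlations among samples, and to match its metabolome analysis. Its methods leave D2 out of the metabolome too, for poor reproducibility. In its hormone measurements it treated the sample called L1 as an outlier. It did not state whether that sample came from the same tissue as library L1.

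An internode of a growing stem holds dividing, elongating and maturing cells side by side, and its RNA is a mixture of all of them. Cells divide first, then lengthen under the influence of auxin, and later stop growing while vessel and fibre walls are thickened and lignified. In such bulk tissue, more cells of a type and more RNA per cell cannot be told apart. Tissue markers could not be checked, because no source used here pairs these gene IDs with descriptions. Apart from the genes named by the study, the members are therefore known here by their gene IDs alone, and no role is given to them.

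By the choice of the genes, the members made up a larger part of the RNA in D2 and L1 than in the other libraries. Their FPKM values summed to 16923 in D2 and 12345 in L1, against 872.9 in D1, 1125 in D3, 1635 in L2 and 2421 in L3. As a share of all FPKM in the library this was 2.82% in D2 and 2.11% in L1, against 0.147% in D1, 0.192% in D3, 0.274% in L2 and 0.409% in L3. Both high libraries thus lay well apart from the other 4, among which L3 had the highest sum and D1 the lowest. The median member had 39.4 FPKM in D2 and 26.9 FPKM in L1, against 1.57 in D1, 1.27 in D3, 2.49 in L2 and 4.32 in L3. The median over all gene rows moved far less but was also highest in D2 and L1, at 13.9 and 13.7 FPKM. It was 12.0 in D1, 12.4 in D3, 12.9 in L2 and 13.1 in L3. Rows listed at 0 were fewest in D2 and L1, at 718 and 770, against 827 to 1217 in the other 4. Total FPKM per library lay between 585381 and 600050, and relative depth, read from low values, lay between 0.868 and 1.08 with L2 lowest. In depth D2 and L1, at 1.05 and 1.07, lay inside the range of the other 4, and scaling the libraries by their median ratios moved no library by more than 0.0523 on the log2 scale. The median-ratio factors were largest in L1 and D2, at 1.04 and 1.02, against 0.974 to 1.01 in the other 4.

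**Figure D1:**
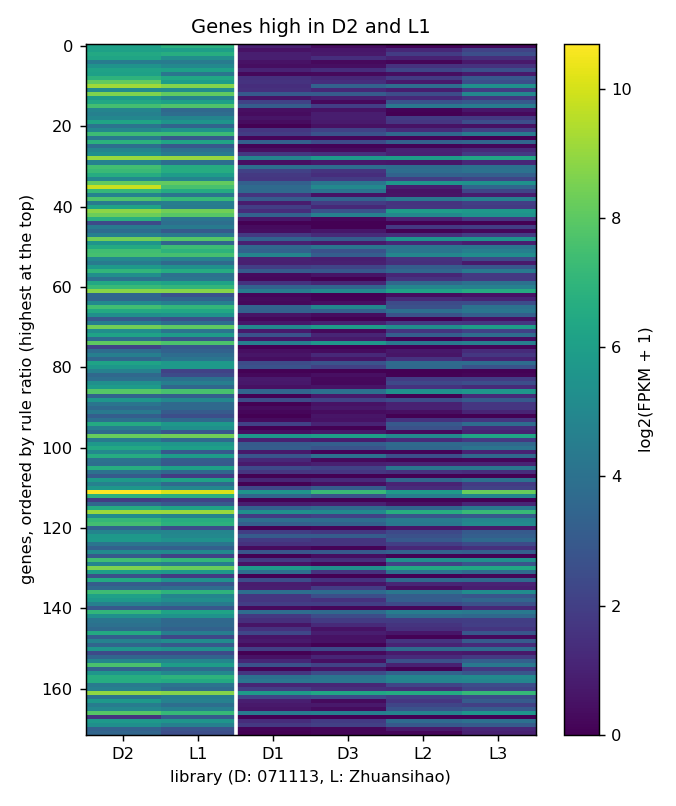
Levels of the 172 genes in each library as log2(FPKM + 1), with 1 row per gene ordered by the ratio used to choose them and 1 column per library. D2 and L1, left of the white line, are bright by choice of the genes, and among the other 4 libraries L3 is the least dark, with a median of 4.32 FPKM against 1.57 in D1.

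The ratio that selected the genes ran from 3.01 to 36.0 with a median of 3.96. It was between 3 and 4 for 87 genes, between 4 and 6 for 54, between 6 and 10 for 20 and at least 10 for 11, so that most members lay near the threshold. Just inside it stood LOC8274544, with 9.01 FPKM in D2 and 5.68 in L1 against 0.0648 in D1, 0.120 in D3, 0.653 in L2 and 1.22 in L3, and LOC8265784, with 10.5 in D2 and 5.02 in L1 against 0, 0.116, 0.144 and 0.996 FPKM in D1, D3, L2 and L3. Just outside were LOC8285504, with 6.41 in D2 and 4.17 in L1 against 0.0901 in D1, 0.0391 in D3, 0.391 in L2 and 0.725 in L3, and LOC8280274, with 29.0 in D2 and 26.5 in L1 against 3.40 in D1, 3.34 in D3, 5.05 in L2 and 8.18 in L3. On both sides of the threshold D2 was highest, followed by L1, L3 and L2, and nothing but the fold separates these genes. The same rule applied to D1 and D3 as the high pair gave 141 genes, and applied to L2 and L3 it gave 17. Turned round, so that D2 and L1 had to be the low pair, it gave 14.

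LOC8269110 had the largest ratio, 36.0. It reached 67.1 FPKM in D2 and 110 FPKM in L1, against 0.892 in D1, 0.289 in D3, 0.0897 in L2 and 0.166 in L3. The gene was thus strongly expressed in 1 library of each variety and under 1 FPKM in the other 4, with D1 the highest of them. The next ratios were much lower. LOC8288827 had 67.2 FPKM in D2 and 63.6 in L1, against 0.427, 0.551, 1.29 and 3.34 FPKM in D1, D3, L2 and L3. LOC8267447 had 85.9 in D2 and 101 in L1, against 0.860, 0.643, 2.73 and 4.93 FPKM in D1, D3, L2 and L3. Both genes were higher in L2 and L3 than in D1 and D3, unlike LOC8269110. LOC8267202 had 74.0 in D2 and 38.5 in L1, against 0.878, 1.62, 1.05 and 1.70 FPKM in the same 4 libraries, where the varieties overlapped. LOC8274100 had 21.5 in D2 and 20.5 in L1, against 0.447, 0.219, 0.109 and 0.653 FPKM, again with overlap.

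Ratios between 10.7 and 11.0 were found for the other 5 of the leading 10. LOC8270579 had 44.3 FPKM in D2 and 31.0 in L1, against 0.330 in D1, 0.335 in D3, 1.90 in L2 and 1.86 in L3. LOC8282551 had 69.7 in D2 and 65.9 in L1, against 1.12 in D1, 1.68 in D3, 3.68 in L2 and 5.07 in L3. LOC8286323 had 120 in D2 and 81.4 in L1, against 1.80 in D1, 1.27 in D3, 2.51 in L2 and 6.67 in L3. These genes shared 1 order, with L2 and L3 above D1 and D3 at low level. LOC8280979 had 66.0 in D2 and only 17.5 in L1, against 0.176 in D1, 0.197 in D3, 0.314 in L2 and 0.688 in L3. LOC8280474 had 282 in D2 and 60.9 in L1, against 1.93 in D1, 1.61 in D3, 0.659 in L2 and 4.77 in L3. In these 2 genes D2 was far above L1, although both exceeded the other libraries.

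**Figure D2:**
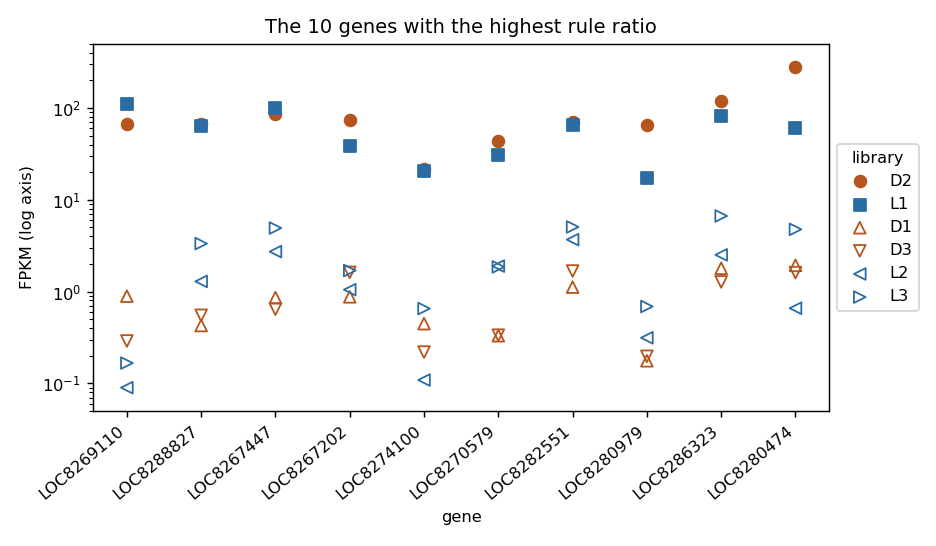
FPKM on a log axis of the 10 genes with the highest ratio in each of the 6 libraries, with filled symbols for D2 and L1 and open symbols for D1, D3, L2 and L3. For LOC8269110 the filled symbols lie at 67.1 and 110 FPKM and every open symbol lies under 1 FPKM.

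By level, the mean of D2 and L1 ran from 3.11 to 1366 FPKM with a median of 34.0. In both libraries 134 members exceeded 10 FPKM and 31 exceeded 100 FPKM. LOC8281236 had the highest level, with 1658 FPKM in D2 and 1073 in L1, against 46.2 in D1, 150 in D3, 58.0 in L2 and 296 in L3. It was well expressed in every library, and its low group overlapped between the varieties. LOC8280479 had 907 in D2 and 191 in L1, against 11.9 in D1, 32.2 in D3, 0.888 in L2 and 10.6 in L3. LOC8285628 had 548 in D2 and 534 in L1, against 39.3 in D1, 34.1 in D3, 101 in L2 and 149 in L3. LOC8259431 had 532 in D2 and 516 in L1, against 26.7 in D1, 52.6 in D3, 60.6 in L2 and 78.7 in L3. The last 2 genes were nearly equal in D2 and L1, and in both L2 and L3 exceeded D1 and D3. LOC8272217 had 571 in D2 and 412 in L1, against 1.65 in D1, 9.36 in D3, 13.3 in L2 and 39.6 in L3, so that D1 and L3 differed widely although both counted as low.

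The members were not simply off in the 4 low libraries. In 59 of them at least 1 of D1, D3, L2 and L3 reached 10 FPKM, and 113 stayed under 10 FPKM in all 4. Only 27 stayed under 1 FPKM in all 4, with levels of 2.02 to 67.1 FPKM in D2 and 2.62 to 110 FPKM in L1. Fewer still, 6, stayed under 0.1 FPKM. LOC8273004, with 4.40 FPKM in D2 and 13.9 in L1, and LOC8265859, with 2.02 in D2 and 7.25 in L1, were the members listed at 0 in all 4, and no fold is given for them. The members listed at 0 numbered 12 in D1, 10 in D3, 11 in L2 and 6 in L3.

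D2 was the higher of both high libraries for most members. It exceeded L1 in 142 of the 172 genes (82.6%), against 50.1% of all gene rows, and L1 exceeded D2 in 30. The log2 ratio of D2 to L1, each plus 1 FPKM, had a median of 0.44 and quartiles of 0.08 and 0.80 over the members, and a median of 0.00 over all rows. The rule treats D2 and L1 alike but uses both values, so the share is given as a description. In 22 members D2 exceeded L1 by at least 1 on the log2 scale. Of all 18875 rows, D2 exceeded L1 by that much in 638, and L1 exceeded D2 in 320. LOC8270745 had 24.9 FPKM in D2 and 3.33 in L1. LOC8289628 had 105 in D2 and 16.8 in L1. Both had a log2 ratio of 2.58, the highest among the members. LOC8273004 and LOC8265859 were at the other end, at -1.46 and -1.45, and were the only members in which L1 exceeded D2 by at least 1.

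**Figure D3:**
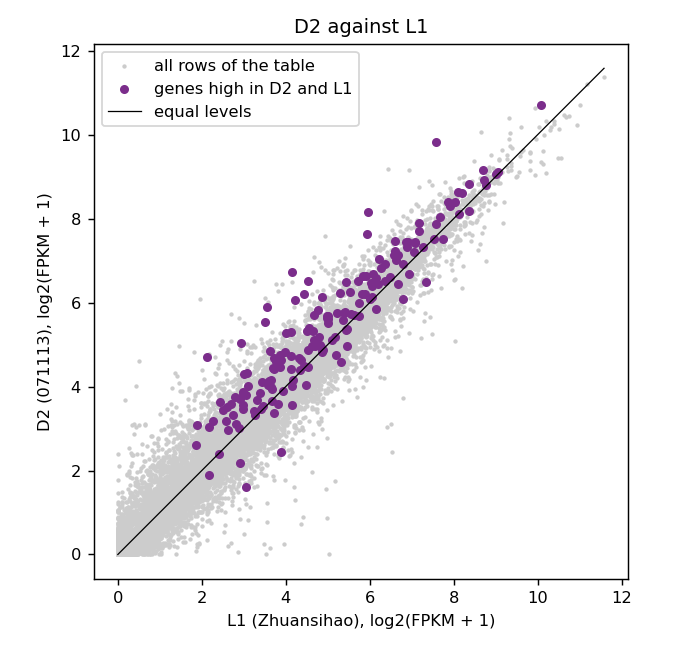
D2 (vertical axis) against L1 (horizontal axis) as log2(FPKM + 1), with the 172 genes in purple, all rows of the table in grey and a line of equal levels. Of the purple points, 142 lie above the line.

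Among the members the study names, cyclin-A and a SAUR gene were found. Cyclin-A (LOC8288529) is a regulatory partner of cyclin-dependent kinases in dividing cells. It had 4.29 FPKM in D2 and 4.28 in L1, against 0 in D1, 0.211 in D3, 0.685 in L2 and 0.605 in L3, with a ratio of 3.13. SAUR genes are small genes that auxin induces early, and several of them in Arabidopsis promote cell expansion. The SAUR gene LOC8259049 had 30.8 FPKM in D2 and 27.0 in L1, against 2.20 in D1, 2.53 in D3, 2.89 in L2 and 3.74 in L3, with a ratio of 5.90. In both genes D2 and L1 were close to each other, and L2 and L3 were above D1 and D3.

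The other genes that the study names in the same pathways were looked at in the same way, with the warning that the study picked them on these libraries, so that they are no independent evidence of a direction. All 8 named cell cycle genes had D2 and L1 as their highest libraries, against 25.1% of all gene rows, but only cyclin-A passed the fold of the rule, and their ratios lay between 1.28 and 3.13. The spindle checkpoint gene Mad2, which holds back chromosome separation until all chromosomes are attached, came nearest. Mad2 at LOC8272625 had 23.7 FPKM in D2 and 22.7 in L1, against 3.85 in D1, 3.20 in D3, 5.76 in L2 and 7.09 in L3, with a ratio of 2.93. The summed FPKM of the 8 genes was 61.7 in D2 and 54.9 in L1, against 6.05 in D1, 6.34 in D3, 18.5 in L2 and 20.5 in L3. By summed FPKM, both the cell cycle genes and the members had D2 and L1 highest and D1 and D3 lowest. D2 and L1 were high in the members by the rule. The study picked the cell cycle genes as lower in D1 and D3 than in L1, L2 and L3, with D2 left out. The shared order of the sums is therefore a description and carries no test. Gene by gene, L2 and L3 both exceeded D1 and D3 in 111 of the 172 members, not in all.

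Of 10 genes named for auxin signalling or transport and matched in the table, 1 was a member and 5 had D2 and L1 highest, with ratios between 0.328 and 5.90. The other named SAUR genes were not members. LOC107260773 had a ratio of 1.22. LOC8260421 had a ratio of 0.347, with 1.53 FPKM in D2 and 2.90 in L1 against 4.93 in L2 and 6.29 in L3. Of 3 named expansins, which loosen walls of growing cells, none was a member and 2 had D2 and L1 highest. Of 5 named genes of lignin synthesis, PAL and peroxidases, none was a member and none had D2 and L1 highest. Their summed FPKM was 4.08 in D2 and 2.54 in L1, against 22.0 in D1, 21.0 in D3, 2.06 in L2 and 3.06 in L3. By this sum D2 lay nearer to the Zhuansihao libraries than to D1 and D3, though above each Zhuansihao library. The study picked these genes as higher in the dwarf variety, with D2 left out. The choice thus fixed the gap between the varieties, and the place of D2 is a description. LOC8272514, LOC8272515 and LOC8289058 were higher in D2 (1.73, 0.269 and 1.54 FPKM) than in any Zhuansihao library. The highest values there were 1.11 (L2), 0.161 (L2) and 0.973 (L3). LOC8258115 and LOC8271940 were not higher, at 0.546 and 0 FPKM in D2. The actin gene used by the study as a reference lay between 55.4 and 60.9 FPKM in all 6 libraries. What part the stage or cell makeup of the tissue had in the height of the members in D2 and L1 was not tested.

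The remaining question is whether the members differed between the varieties once D2 and L1 are set aside. In D1, D3, L2 and L3 the rule only caps the highest value, whichever variety it comes from. L2 and L3 both exceeded D1 and D3 in 111 of the 172 members (64.5%), against 34.4% of all gene rows. D1 and D3 both exceeded L2 and L3 in 14 members (8.14%), against 28.4% of all rows, and the libraries overlapped in 47. Without L2, when L3 alone had to exceed D1 and D3, the share was 83.1% of the members, against 44.2% of all rows. Within these 4 libraries L3 was the highest for 116 members (67.4%), against 26.6% of all rows. L2 was the highest for 31, D3 for 18 and D1 for 7, against 29.4%, 20.3% and 23.6% of all rows. The lowest library was D1 for 73 members, D3 for 64, L2 for 32 and L3 for 3. Over all 18875 rows it was D1 for 5507, D3 for 4479, L2 for 4628 and L3 for 4261. The mean difference of D1 and D3 from L2 and L3 in log2(FPKM + 1) had a median of -0.76 over all 172 members, with quartiles of -1.32 and -0.15, against a median of -0.03 over all gene rows.

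**Figure D4:**
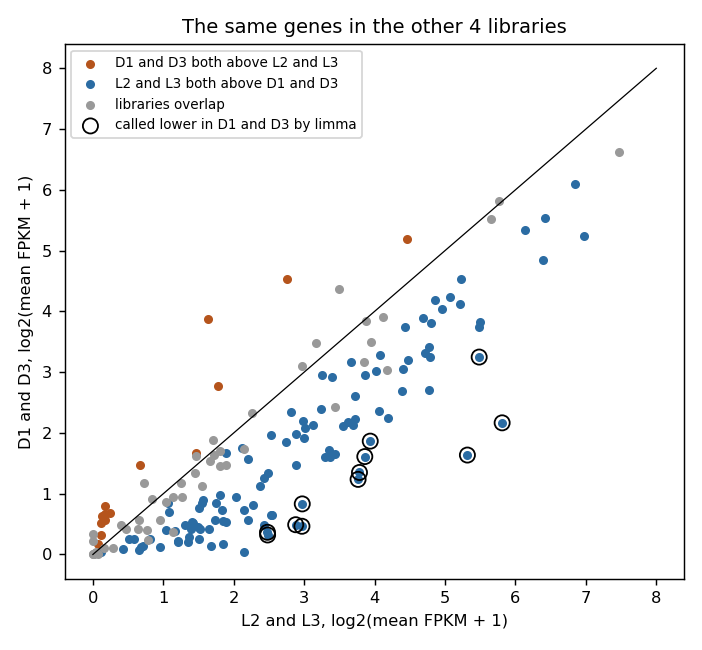
Mean of D1 and D3 (vertical axis) against mean of L2 and L3 (horizontal axis) for the 172 genes, both as log2(mean FPKM + 1), with a line of equal levels. Blue points are the 111 genes with both Zhuansihao libraries above both dwarf libraries, orange points the 14 genes with the reverse, grey points the 47 genes that overlap, and circles the 12 genes called lower in D1 and D3 by limma.

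Tested with limma over all genes with at least 1 FPKM in at least 2 of these 4 libraries, 12 members were called lower in D1 and D3 than in L2 and L3 and 0 were called higher, with thresholds of 0.05 on the adjusted p and of 2 on the size of the log2 difference. Of all 15692 genes tested, 1.05% were called lower and 1.27% higher. Among the members 129 passed the filter on low values, 34 of them through L2 and L3 alone and none through D1 and D3 alone, and 43 did not pass it. Of the 12 called, 4 had D1 and D3 both under 1 FPKM and so passed through L2 and L3 alone, where they had to be higher, and the other 8 did not. The values tested are also ones that the rule capped, so the counts describe the members and support nothing further. By adjusted p alone 41 members were lower, against 6.39% of all genes, and 0 were higher, against 6.02%. At an unadjusted p under 0.05, 79 members were lower, against 19.2% of all genes, and 1 was higher, against 14.9%. Both counts of lower members include some that passed the filter through L2 and L3 alone. The number of calls changed with each library left out. Each such fit had a single library in one variety, and its spread came from the other variety. Fewer calls there do not show smaller differences. In these fits the difference of LOC8281166 ran from -3.88 (without D1) to -3.51 (without D3). That of LOC8273057 ran from -4.44 (without D3) to -3.13 (without D1). Without D1, and likewise without L2, limma called no gene at all, members included, although 2845 of 15344 and 4630 of 15308 genes had an unadjusted p under 0.05. Among the members, 65 and 53 were then lower and 3 and 1 higher at that p. Without D3, 137 genes were called, of which 4 were members, all lower and 3 of them among the 12. Without L3, 245 genes were called, with 3 of the 12 lower and LOC8262768 higher.

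LOC8273057 differed most. It had 1.59 FPKM in D1 and 5.39 in D3, against 58.8 in L2 and 51.5 in L3, while D2 had 454 and L1 had 330. The log2 difference of D1 and D3 from L2 and L3 was -3.78 (SE 0.46, limma adjusted p = 0.0259). As with the counts, the rule capped the values tested, so this p and those of the genes below are descriptions. The levels of LOC8273057 fell into 3 tiers, with D2 and L1 highest, L2 and L3 between and D1 and D3 lowest. LOC8281166 had the same tiers, at 2.51 FPKM in D1 and 1.71 in D3, against 38.5 in L2 and 39.3 in L3, and at 171 in D2 and 134 in L1. The difference was -3.69 (SE 0.17, limma adjusted p = 0.0114). Of the 12 genes, LOC8281166 and LOC8278047 were called both without D3 and without L3.

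LOC8275792 had 1.21 FPKM in D1 and 1.51 in D3, against 10.5 in L2 and 14.7 in L3, with 56.2 in D2 and 69.7 in L1. Its difference was -2.52 (SE 0.22, limma adjusted p = 0.0191). LOC8284786 had 0.481 in D1 and 0.279 in D3, against 5.25 in L2 and 8.40 in L3, with 39.6 in D2 and 42.2 in L1. It entered the test through L2 and L3 alone, and its difference of -2.48 is given as a description. In these 2 genes L1 was above D2, and D1 and D3 lay under 2 FPKM. Of the other 8, LOC8264483, LOC8266960, LOC8278047, LOC8277381 and LOC8268643 had differences of -2.44 to -2.09 and limma adjusted p-values of 0.0131 to 0.0358. LOC8276047, LOC8274127 and LOC8274717 also entered through L2 and L3 alone. Their differences of -2.39, -2.16 and -2.08 are given as a description. These 8 genes had 0.162 to 9.18 FPKM in D1 and 0.148 to 7.83 in D3, against 3.26 to 43.3 in L2 and 4.75 to 44.3 in L3.

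The 14 members with D1 and D3 above L2 and L3 were of unlike level. LOC8269110, the gene with the largest ratio, was one of them. LOC8262768 had 139 FPKM in D2 and 95.0 in L1, and its 11.7 in D1 and 15.8 in D3 stood against 0.419 in L2 and 3.77 in L3. The difference of D1 and D3 from L2 and L3 was 2.49 but was not called (SE 0.62, limma adjusted p = 0.0716). Without L3, with L2 as the only Zhuansihao library, it was 3.36. For LOC8280479, whose levels are given above, it was 2.14 (SE 1.01, limma adjusted p = 0.217). LOC8259062 had 261 in D2 and 203 in L1, and its 23.4 in D1 and 47.9 in D3 stood against 18.8 in L2 and 23.0 in L3. In the last gene D1 and L3 were almost equal, so that the separation rests on D3.

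The labelled variety comparison with all 6 libraries called none of the members. Of 16236 genes tested with limma, 0.0123% were called either way, and of the 172 members 0 were called and 0 had an unadjusted p under 0.05, the lowest adjusted p being 0.715. Because the rule puts a high library in each variety, nothing is read from this count. With D2 left out and all Zhuansihao libraries kept, 4 members were called lower in 071113, against 1.19% of the 15925 genes tested, and 0 higher, against 1.34%. Without D1 or D3 limma called no gene at all, and without L1 it called 364 genes, of which 12 were members. The 4 members called with D2 alone left out were LOC8273057, LOC8281166, LOC8276047 and LOC8266960. All are also among the 12 called in D1 and D3 against L2 and L3. L1 was used as a high library in choosing the genes, so that comparison too says nothing about the members. It shows only how the choice of libraries moves them. The comparisons share libraries and are not independent of each other.

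Some members lie next to each other in the castor genome. In the order of protein-coding genes of the RefSeq assembly ASM1957865v1, used for neighbourhood only, 167 members could be placed. There were 9 pairs of direct neighbours, and 25 members lay in 11 runs with at most 1 other gene between them, of which 9 runs held 2 members, 1 held 3 and 1 held 4. For the 141 genes high in D1 and D3 by the same rule, 140 could be placed and gave 8 pairs of direct neighbours. Of 279 direct neighbours that are not members, D2 and L1 were the highest libraries in 94 (33.7%), against 25.1% of all rows. Neighbours in a run may be copies of one another. No sequences were at hand to check this, and reads shared between copies would tie their values.

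The longest run held LOC8259028, LOC8259027, LOC107260723 and LOC8259022, with LOC8259025 inside it. LOC8259022 had 35.0 FPKM in D2 and 34.8 in L1, against 1.78 in D1, 1.26 in D3, 0.836 in L2 and 2.63 in L3. LOC8259027 had 46.8 in D2 and 40.4 in L1, against 3.10 in D1, 4.30 in D3, 12.2 in L2 and 12.2 in L3. LOC8259025 had 3.38 in D2 and 8.86 in L1, against 5.32 in D1, 4.90 in D3, 2.64 in L2 and 3.92 in L3. The pattern thus stopped at the gene in the middle and was taken up again beyond it. The run of 3 held LOC8259897, with 51.0 FPKM in D2 and 24.7 in L1, LOC8259898, with 15.0 in D2 and 16.7 in L1, and LOC8259899, with 58.3 in D2 and 10.7 in L1. D1 and D3 lay under 1 FPKM in all 3, against 1.41 to 7.44 FPKM in L2 and L3. Its flanking gene LOC8259896 ran the other way, with 2.46 in D2 and 6.39 in L1, against 34.6 in D1, 22.6 in D3, 5.49 in L2 and 3.66 in L3.

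A further run joined LOC8280474 and LOC8280479, both described above, with LOC8280472 before them and LOC8280478 between them. LOC8280472 had 63.9 FPKM in D2 and 11.0 in L1, against 5.18 in D1, 4.49 in D3, 0.231 in L2 and 2.64 in L3. LOC8280478 had 91.1 in D2 and 8.42 in L1, against 9.07 in D1, 17.7 in D3, 0.285 in L2 and 2.42 in L3. All 4 genes had D2 highest, well above L1, and L2 lowest. Only LOC8280474 and LOC8280479 met the rule, since L1 was not high enough in the others. The pairs LOC8281186 and LOC8281185, LOC8262768 and LOC8262767, and LOC8265783 and LOC8265784 were direct neighbours. LOC8281186 had 30.3 in D2 and 42.9 in L1, against 2.21 in D1, 3.20 in D3, 1.46 in L2 and 3.07 in L3. LOC8281185 had 11.1 in D2 and 13.0 in L1, against 0.872 in D1, 2.69 in D3, 0.327 in L2 and 0.844 in L3. In this pair L1 was above D2, and D3 was above D1, L2 and L3. LOC8262767 had 7.24 in D2 and 3.50 in L1, against 0 in D1, 0.332 in D3 and 0 in L2 and L3. LOC8265783 had 38.0 in D2 and 15.1 in L1, against 0.246 in D1, 0.495 in D3, 1.22 in L2 and 2.40 in L3.

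**Figure D5:**
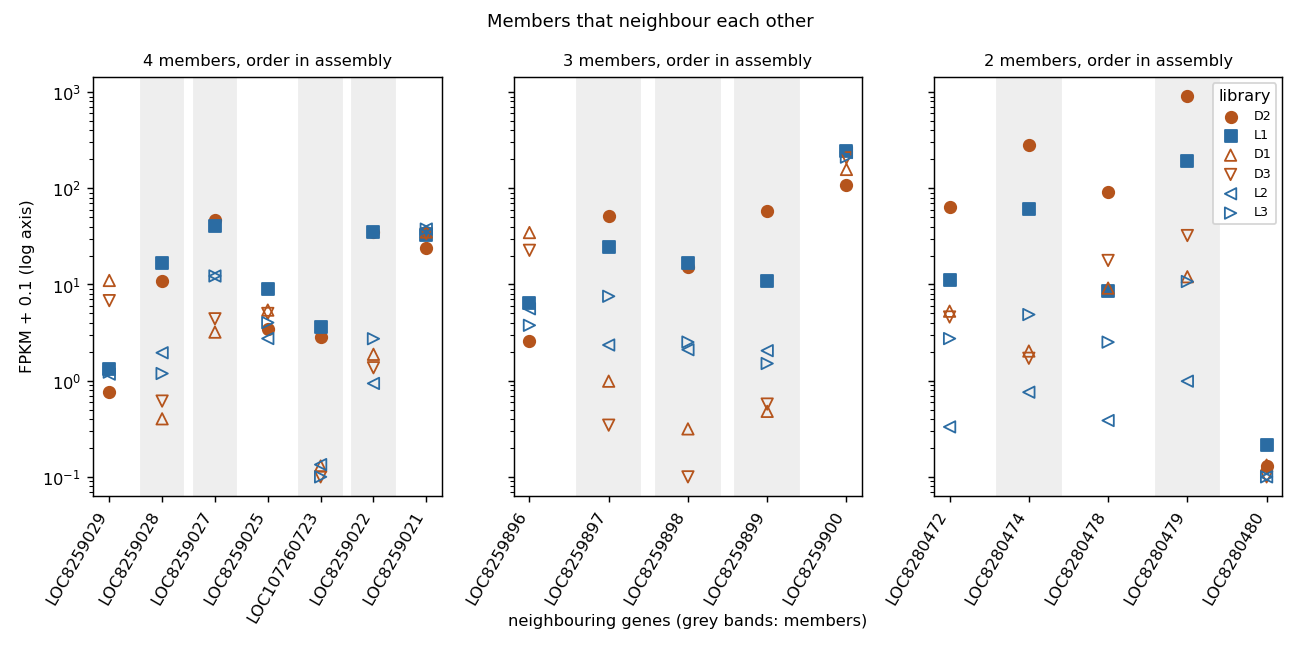
FPKM plus 0.1 on a log axis for 3 runs of neighbouring genes and the genes beside them, in the order of assembly ASM1957865v1, with grey bands behind the members. D2 and L1 (filled) are highest in the bands, D2 is also highest in LOC8280472 and LOC8280478 at 63.9 and 91.1 FPKM, and D1 and D3 are highest in LOC8259896 at 34.6 and 22.6 FPKM.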

How the data were processed

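Poly(A) mRNA of the 5th internode was sequenced in 6 libraries, and the authors deposited FPKM per gene and library, with replicates not pooled. Which aligner, counter and build were used is not given in the sources used here, and no coordinates are printed. The authors tested read counts, and that step was not repeated on FPKM. The low values kept only relative depth, and no counting interval can be given.

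Values were analysed as log2(FPKM + 1), which understates changes of low genes. The test was limma 3.58.1 (R 4.3.3, mean-variance trend, Benjamini-Hochberg over all genes tested), applied where at least 2 of the libraries reached 1 FPKM, and the thresholds of a call were an adjusted p of 0.05 and a log2 difference of 2 in size. The fit was tested on simulated data. The rest was done with pandas 2.3.3 and numpy 2.4.6 in Python 3.11.15, and drawn with matplotlib 3.10.9. The castor RefSeq table (ASM1957865v1) matched 168 of the 172 genes and was used for neighbours only. Lists of pathway and tissue marker genes by description, and of sequence motifs, could not be applied, since no descriptions or sequences were at hand.

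Genes were named by rule: those the study names, the 10 largest ratios, the 5 highest levels, 2 on each side of the threshold, up to 4 each way among those called in D1 and D3 against L2 and L3, and up to 6 groups of neighbours. LOC8273004, LOC8265859, LOC8270745, LOC8289628, LOC8262768, LOC8259062, the other 8 genes called, and genes beside runs were added after their values were seen. The members and lists were chosen with earlier results of these data known. Alternatives were other folds, pseudocounts, filters, a median-ratio scaling, no trend, adjusted p alone, a replicate block and each library left out. Those for the shares of members were chosen after seeing the data.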

Additional observations from a re-analysis of the deposited data

How the results depend on the processing

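The number of genes chosen depended on the fold, with 506 genes at a fold of 2 and 85 at a fold of 4. It was 225 with a pseudocount of 0.5, 124 with a pseudocount of 2 and 155 under median-ratio scaling. With each library left out in turn it lay between 178 and 488, with 488 without L1, when D2 alone had to be high, and 298 without L3. The share of members with L2 and L3 above D1 and D3 was 72.1% at a fold of 2. With each of the 4 libraries left out it lay between 66.9% (without L3) and 83.1% (without L2), against 46.3% and 44.2% of all rows. Leaving out a library removes a condition, so this share and the number of genes chosen could not fall. The share with D2 above L1 stayed between 82.4% and 84.9% at the other folds and under median-ratio scaling. Over all 6 libraries, leaving out a library gave 0 to 4 members called, 4 without D2. The replicate numbers did not pair the libraries (correlation of deviations -0.47 for D1 and L1, -0.55 for D2 and L2, 0.33 for D3 and L3), and with the replicate block 0 members were called by limma and 0 had an unadjusted p under 0.05, as without it. With D2 alone set aside, the members called numbered 7 of 542 genes called with a pseudocount of 0.5, 12 of 674 with 0.1 and 2 of 370 with no filter. With a library left out they numbered 0 to 12. Without D1 or D3 limma called 0 of all genes, with 18 and 10 members lower at an unadjusted p under 0.05, without L2 or L3 it called 1 member of 322 and 355 genes, and without L1 12 of 364. For D1 and D3 against L2 and L3, they numbered 20 of 573 genes called with a pseudocount of 0.1, 41 of 1947 by adjusted p alone, and 0 to 4 with a library left out. An arm left with 1 library took its spread from the other. FPKM holds no read numbers, so the error of low values is not known.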
